A study of Homo sapiens with 6 samples.

Results

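The genes described here are the core autophagy genes, the subunits of the lysosomal proton pump and a few marker proteins of the lysosome, in SU-DHL-8 cells given erianin. They were the symbols of the count table that begin with ATG and a digit, or with ATP6V0 or ATP6V1, the accessory pump subunits ATP6AP1 and ATP6AP2, and 18 genes fixed by name, each with at least 20 counts summed over the 6 libraries. This gave 54 members among 18157 symbols with at least 1 count. The symbol rule matched 89 entries. Of the 35 below the minimum, 29 were at 0 in every library and 6 had 1 to 19 counts. Pseudogenes, antisense genes and readthrough genes made up 29 of the 89 matches, and 0 of these became members. Among the protein-coding genes below the minimum were ULK2 with 2 counts, ATP6V1B1 with 2 counts and ATG9B with 7 counts. CTSL, the gene of cathepsin L, was listed at 0 in all 6 libraries.

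SU-DHL-8 is a cultured line from a human diffuse large B-cell lymphoma, and its genotype is labelled WT in both groups. The treated group had received 100 nM erianin, a bibenzyl compound of Dendrobium orchids described as a tubulin ligand, and the control group DMSO, each for 24 h. Gene expression was measured by RNA sequencing in 3 libraries per group, which the design calls replicate experiments without saying how separate the cultures were. Total counts were 35307027, 32844464 and 34130896 in erianin replicates 1, 2 and 3, against 30956443, 34215321 and 35588728 in DMSO replicates 1, 2 and 3. At these depths 3 counts, used as the floor, equal 0.084 to 0.097 CPM (counts scaled to a common library size), which covers counting error only.

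In autophagy, the ULK1 kinase complex and the class III PI3-kinase complex start a double membrane on which a ubiquitin-like conjugation system attaches proteins of the ATG8 family, such as LC3, to lipid. The finished autophagosome fuses with the lysosome, where cathepsins digest its cargo. The lysosome is acidified by the V-ATPase, a rotary pump whose cytosolic V1 sector splits ATP and whose membrane V0 sector carries protons. TFEB and TFE3 are transcription factors that act on many genes of lysosomes and autophagy. In lymphocytes autophagy is known for its part in the survival of memory cells and plasma cells.

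One library, DMSO replicate 1, differed from all others. The biological coefficient of variation was 0.0336 to 0.0815 for pairs of erianin libraries and 0.0381 for DMSO replicates 2 and 3, but 0.291 and 0.294 for the pairs with DMSO replicate 1. The share of counts in ribosomal protein genes was at least 11.5% in each erianin library, 8.54% in DMSO replicate 1, and 12.5% and 12.4% in DMSO replicates 2 and 3. All 6 libraries entered the fit, and counts of calls by role or list are followed by those without DMSO replicate 1. Changes are log2 fold changes, erianin minus DMSO, with their standard error (SE), from the edgeR quasi-likelihood test. A gene was called at a Benjamini-Hochberg adjusted p under 0.05 over 11550 genes.

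Erianin moved autophagy and proton pump genes in both directions and by modest amounts. ATG16L1, ATG5 and ULK1 of the autophagy core rose, and so did the pump genes ATP6V0A2, ATP6V0E1, ATP6V1C2 and ATP6AP2. TFEB, the scaffold gene ATG13, the pump genes ATP6V0D1 and ATP6V1G2, the lysosomal channel gene MCOLN1 and the cathepsin gene CTSB fell. Of 53 members tested, 7 rose, 6 fell and 40 were not called, and 0 of the called members changed at least 2-fold. ATP6V1G3, with 33 counts in all, was not tested. The called share was 24.5%, against 24.2% of all genes tested, with 11.8% of all genes higher and 12.3% lower. It therefore lay at the background, and nothing particular to these genes is read from it.

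The log2 fold changes of the tested members ran between -0.88 and 1.61, with a median of -0.06, against a median of -0.0033 over all genes tested. All 3 erianin libraries lay above all 3 DMSO libraries for 12 members, against 23.6% of all genes, and below them for 13 members, against 23.1% of all genes. The groups overlapped for 28 members. Without DMSO replicate 1, 16 members were higher and 22 lower, which is 71.7% of those tested, against 55.3% of all genes (27.8% higher and 27.4% lower). All 13 calls made with 6 libraries were also made without it, in the same direction. These all-gene shares are the background of the counts by role and list, which are small and from which nothing particular to a role is read. With upper-quartile scaling and with total counts alone, 9 members were called higher and 5 lower. The split over all genes was 1763 higher and 1093 lower with upper-quartile scaling, and 1840 higher and 918 lower with total counts, against 1368 higher and 1423 lower with the TMM scaling used here. Total counts moved the median of all genes by 0.11 on the log2 scale. In these bulk libraries a smaller number of cells of one kind and less RNA per cell cannot be told apart.

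**Figure D1:**
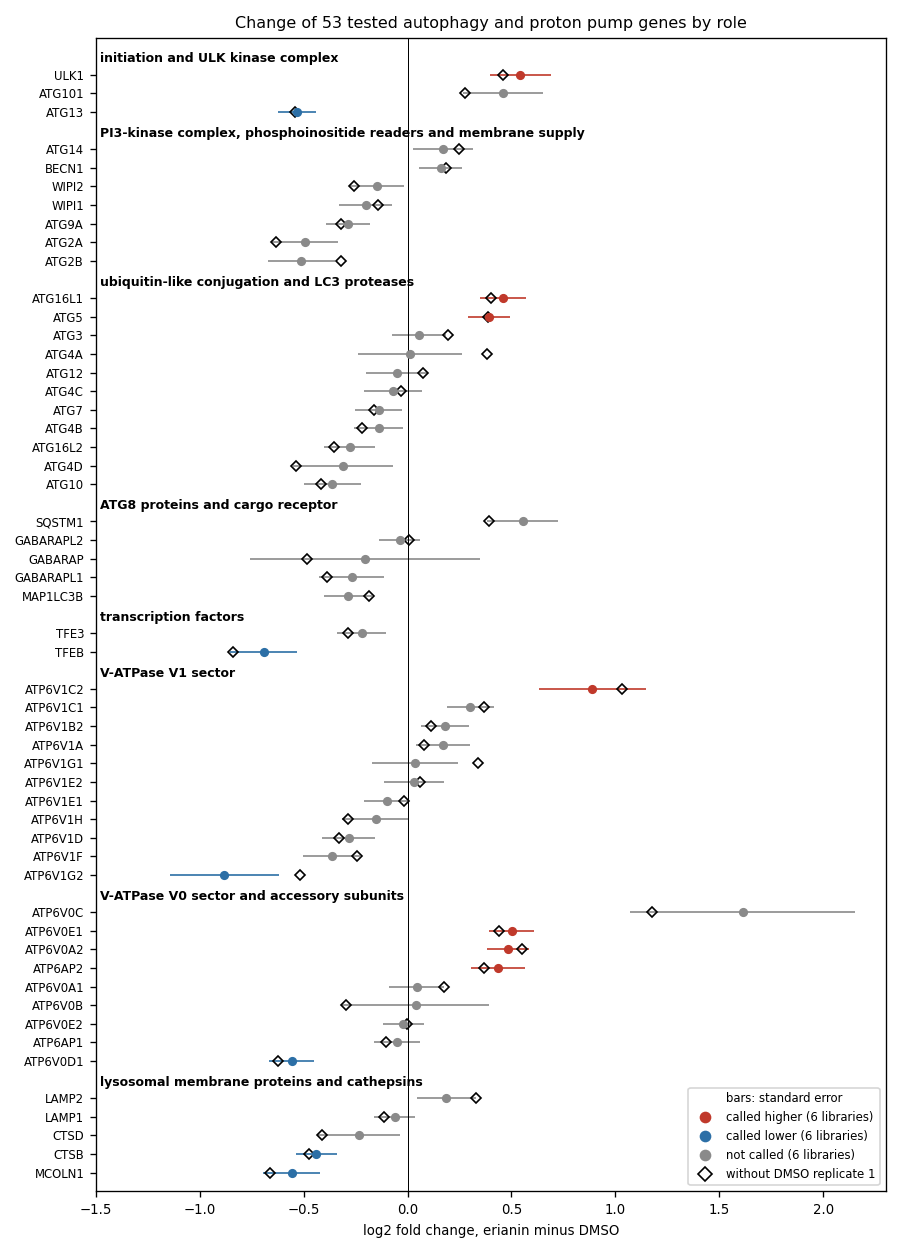
Log2 fold change (erianin minus DMSO, horizontal axis) of the 53 tested members, grouped by role, with bars for the SE, colours for the call and open diamonds for the value without DMSO replicate 1. Called members lie on both sides of 0, and ATP6V0C has the highest value, 1.61, with a wide bar and no call.

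The ULK1 complex receives the signal that starts autophagy. ULK1, its kinase (chr12:131894651-131923167, GRCh38, plus strand), had 37.0, 40.6 and 47.8 CPM in the erianin libraries and 24.8, 32.0 and 29.3 CPM in the DMSO libraries. ATG13, the adaptor that links the kinase to the rest of the complex (chr11:46617527-46674818, plus strand), had 74.0, 74.3 and 78.1 CPM with erianin and 106, 112 and 109.7 CPM with DMSO. Neither gene had overlapping groups, and they moved in opposite directions. ULK1 rose by 0.54 ± 0.15 (adjusted p = 0.034) and ATG13 changed by -0.53 ± 0.09 (adjusted p = 0.0085). ATG13 had the smallest adjusted p of all members. ATG101, which stabilises ATG13, had 112, 109.6 and 125 CPM with erianin and 59.4, 98.9 and 93.3 CPM with DMSO. Its groups did not overlap either, but DMSO replicate 1 lay far below the other DMSO libraries, and the test gave 0.46 ± 0.19 (adjusted p = 0.12) with that library and 0.28 ± 0.07 (adjusted p = 0.0015) without it.

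The class III PI3-kinase complex marks the growing membrane with a phosphoinositide, WIPI proteins read that lipid, and ATG2 and ATG9 proteins help supply more membrane. Of 7 tested genes with these roles, 0 were called in either direction by edgeR, and 0 higher and 3 lower had an unadjusted p under 0.05. DESeq2 called 0 higher and 2 lower, and limma-voom called 0. Over the 11550 genes DESeq2 called 1566 higher and 1843 lower, and limma-voom 1401 higher and 1361 lower. In edgeR, 2192 of these genes were higher and 2244 lower at an unadjusted p under 0.05. Of the 7 genes, the fit without DMSO replicate 1 called 1 higher and 4 lower, and that with offsets for GC content and length and all 6 libraries 0 higher and 3 lower. Of all genes 11.8% were higher and 12.3% lower in the main fit, 27.8% and 27.4% without DMSO replicate 1, and 15.2% and 21.4% with the offsets. BECN1, the Beclin 1 subunit, had 61.1, 61.1 and 66.2 CPM with erianin and 57.0, 59.8 and 51.8 CPM with DMSO, with groups that did not overlap. Its change was 0.16 ± 0.10 (adjusted p = 0.30). The lipid transfer genes ATG2A and ATG2B came closest to a call, with -0.49 ± 0.16 (adjusted p = 0.062) and -0.51 ± 0.16 (adjusted p = 0.054). In ATG2A the erianin libraries had 82.0, 86.0 and 97.9 CPM and the DMSO libraries 97.6, 139 and 138 CPM, so DMSO replicate 1 lay within the erianin range. In ATG2B the erianin libraries had 82.1, 86.2 and 74.7 CPM and the DMSO libraries 142, 106 and 97.6 CPM, so DMSO replicate 1 was the highest of all. Without it both were called lower, with -0.63 ± 0.07 (adjusted p = 4.4e-08) and -0.32 ± 0.07 (adjusted p = 0.00055). The remaining 4 genes, ATG14, ATG9A, WIPI1 and WIPI2, had log2 fold changes between -0.29 and 0.17. ATG9A, at the low end, shares 38.8% of its exonic bases with a same-strand gene, AC068946.2.

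The conjugation system joins ATG12 to ATG5, and with ATG16L1 this conjugate directs the attachment of LC3 to the membrane. ATG16L1 (chr2:233210051-233295674, plus strand) had 41.0, 40.4 and 39.9 CPM with erianin and 26.5, 29.6 and 32.2 CPM with DMSO. ATG5 (chr6:106045423-106325791, minus strand) had 78.0, 75.5 and 69.5 CPM with erianin and 55.1, 55.5 and 59.3 CPM with DMSO. In both genes every erianin library stood above every DMSO library, and the 3 DMSO libraries lay close together. ATG16L1 rose by 0.46 ± 0.11 (adjusted p = 0.024) and ATG5 by 0.39 ± 0.10 (adjusted p = 0.029). Of 11 tested genes of the conjugation system and its ATG4 proteases, these 2 were higher and 0 lower, against 11.8% of all genes higher and 12.3% lower. Leaving out DMSO replicate 1, 4 were higher and 4 lower, and with the offsets 1 was higher and 2 lower. ATG12 itself, the conjugating enzymes ATG3 and ATG10, the E1-like enzyme ATG7, ATG16L2 and the proteases ATG4A, ATG4B, ATG4C and ATG4D had log2 fold changes between -0.36 and 0.06 and were not called. ATG4D had 48.0, 49.4 and 59.9 CPM with erianin and 41.3, 73.6 and 80.0 CPM with DMSO, where replicate 1 was the lowest of all libraries. Its change was -0.31 ± 0.24 (adjusted p = 0.39) with that library and -0.54 ± 0.08 (adjusted p = 5.9e-06) without it, and -0.49 (adjusted p = 0.0054) with all 6 libraries and the offsets.

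ATG8 proteins coat the autophagosome, and SQSTM1 (p62) is a receptor that carries ubiquitin-marked cargo to them. Of these 5 tested genes 0 were called by edgeR. At an unadjusted p under 0.05, 1 was higher and 1 lower, against 2192 higher and 2244 lower of all 11550 genes. DESeq2 and limma-voom each called 1 higher and 0 lower, against their counts over all genes given above. With DMSO replicate 1 left out, 1 was higher and 2 lower, and with the offsets 1 was higher and 1 lower. SQSTM1 (chr5:179806398-179838078, plus strand) had 94.2, 92.5 and 101 CPM with erianin and 48.9, 74.6 and 72.9 CPM with DMSO. The groups did not overlap, and the change was 0.55 ± 0.17 (adjusted p = 0.053) with all libraries and 0.39 ± 0.07 (adjusted p = 2.9e-05) without DMSO replicate 1, the lowest library. SQSTM1 was called higher by DESeq2, limma-voom, edgeR with upper-quartile scaling or total counts, edgeR with no filter, and edgeR with the offsets. It was not called with DESeq2 size factors in edgeR (adjusted p = 0.057), with the filter at 20 counts (adjusted p = 0.053), by limma-trend on TPM with a pseudocount of 1 or 0.1 (adjusted p = 0.14 for both), against a 1.5-fold change, or without any 1 of the other 5 libraries (adjusted p = 0.062 to 0.16). It shares 20.7% of its exonic bases with MRNIP on the opposite strand, which was listed at 0.

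MAP1LC3B, the LC3B gene, had 145, 147 and 130.0 CPM with erianin and 193, 162 and 161 CPM with DMSO, with a change of -0.29 ± 0.12 (adjusted p = 0.11). Its groups did not overlap, and DMSO replicate 1 was the highest. GABARAPL1 had 10.0, 10.8 and 10.1 CPM with erianin and 9.99, 14.1 and 13.1 CPM with DMSO (-0.27 ± 0.16, adjusted p = 0.25). GABARAPL2 had 52.3, 47.7 and 48.0 CPM with erianin and 53.0, 48.3 and 50.8 CPM with DMSO (-0.04 ± 0.10, adjusted p = 0.81). Both are close relatives of GABARAP, and in both the groups overlapped. Without DMSO replicate 1, MAP1LC3B (-0.19 ± 0.07, adjusted p = 0.018) and GABARAPL1 (-0.39 ± 0.11, adjusted p = 0.0036) were called lower. GABARAP itself was near the floor, with 0.410, 0.462 and 0.114 CPM in the erianin libraries and 0.197, 0.493 and 0.441 CPM in the DMSO libraries. The edgeR test gave -0.20 ± 0.55 (adjusted p = 0.82), so a small change in GABARAP was not detectable at this depth. In GENCODE 29 it shares 30.5% of its exonic bases with a same-strand gene, AC120057.2, and how reads of shared exons were counted is not given in the sources used here.

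TFEB (chr6:41683978-41736259, minus strand) had 269, 269 and 298 CPM in the erianin libraries and 345, 498 and 508 CPM in the DMSO libraries. The groups did not overlap, and DMSO replicate 1 was the lowest DMSO library. TFEB fell by 0.69 ± 0.16 on the log2 scale (adjusted p = 0.022), and without DMSO replicate 1 its change was -0.84 ± 0.06 (adjusted p = 2.5e-11). TFE3, its paralog, had 33.4, 31.0 and 35.1 CPM with erianin and 34.3, 41.0 and 40.8 CPM with DMSO, with overlapping groups and a change of -0.22 ± 0.12 (adjusted p = 0.21). Without DMSO replicate 1 TFE3 was called lower (-0.29 ± 0.08, adjusted p = 0.0034). On the length-scaled TPM scale TFEB stood at 65.2 ± 3.69 TPM with erianin (SD, n = 3) and 111 and 113 TPM in DMSO replicates 2 and 3, and TFE3 at 19.4 ± 0.980 TPM with erianin and 23.0 and 22.8 TPM in those DMSO libraries. TPM of DMSO replicate 1 are left out of these levels because that column summed to 39.2% of what a TPM column should, against 63.6% to 66.7% in the other libraries.

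TFEB and TFE3 are known to bind a DNA element whose core is CACGTG, so the promoters of the members were searched for it. The RefSeq promoters (GRCh38.p14) of 45 of the 54 members could be matched, and the 250 bases before the start were searched for CACGTG, which reads the same on both strands. It was found in 9 of 45 members (20%), against 9.20% of the promoters of tested genes and 6.49% of all promoters. The longer TCACGTGA, which contains it, was found in 4 of 45 (8.89%), against 1.83% of tested genes and 0.890% of all promoters. Among members called higher 0 of 6 held CACGTG, among those called lower 2 of 5, and among those not called 7 of 33. A match is a description of these letters and not of binding. The windows shown belong to both called members with a match and to ATP6V1G1 and LAMP1, members with a match that were not called, with CACGTG in capitals and 5′ to 3′ on the strand of the gene. The MCOLN1 window is chr19:7522553-7522623 (plus strand), that of ATP6V0D1 chr16:67481181-67481246 (minus strand), that of ATP6V1G1 chr9:114587681-114587746 (plus strand), and the LAMP1 windows are chr13:113297017-113297132 and chr13:113297181-113297238 (plus strand).
MCOLN1: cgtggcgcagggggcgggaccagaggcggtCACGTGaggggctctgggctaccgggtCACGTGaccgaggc
ATP6V0D1: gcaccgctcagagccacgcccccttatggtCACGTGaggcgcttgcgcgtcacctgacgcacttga
ATP6V1G1: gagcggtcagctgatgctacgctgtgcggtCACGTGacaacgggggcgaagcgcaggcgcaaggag
LAMP1, far window: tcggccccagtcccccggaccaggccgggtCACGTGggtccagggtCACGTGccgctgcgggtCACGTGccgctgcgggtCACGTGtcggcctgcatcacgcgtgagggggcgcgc
LAMP1, near window: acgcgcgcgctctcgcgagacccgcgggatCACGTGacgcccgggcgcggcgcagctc

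The V1 sector of the pump holds the catalytic A subunit, the B subunit and the stalks that connect them to the membrane. Of 11 tested V1 genes 1 was higher, 1 lower and 9 not called, against 11.8% of all genes higher and 12.3% lower. There were 3 higher and 4 lower without DMSO replicate 1. ATP6V1C2 (chr2:10721100-10785110, plus strand), a C subunit isoform, had 1.78, 1.47 and 1.71 CPM with erianin and 1.05, 1.02 and 0.618 CPM with DMSO. ATP6V1G2 (chr6:31544462-31548427, minus strand), a G subunit isoform, had 3.74, 4.10 and 4.12 CPM with erianin and 10.5, 6.22 and 5.29 CPM with DMSO. By TPM both are minor isoforms, at 1.31 ± 0.110 and 3.97 ± 0.243 TPM with erianin (SD, n = 3), and in neither did the groups overlap. ATP6V1C2 rose by 0.89 ± 0.26 (adjusted p = 0.044), and ATP6V1G2 changed by -0.88 ± 0.26 (adjusted p = 0.048) with all libraries and by -0.52 ± 0.16 (adjusted p = 0.0075) without DMSO replicate 1, its highest library.

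ATP6V1C2 shares 29.7% of its exonic bases with PDIA6 on the opposite strand, and whether the counting used strand is not given in the sources used here. PDIA6, a disulfide isomerase gene of the endoplasmic reticulum, had 213, 208 and 218 CPM with erianin and 186, 169 and 166 CPM with DMSO (0.30 ± 0.10, adjusted p = 0.058). Its part in the counts of ATP6V1C2 was not tested. ATP6V1G2 shares 13.6% of its exonic bases with the same-strand readthrough gene ATP6V1G2-DDX39B, listed at 0, and 9.4% with NFKBIL1 on the opposite strand. NFKBIL1 had a change of -0.62 ± 0.33 (adjusted p = 0.21), and its part in the counts of ATP6V1G2 was not tested.

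The abundant V1 genes were not called with all libraries. ATP6V1A, the catalytic subunit, had 43.0, 45.6 and 39.7 CPM with erianin and 32.5, 40.4 and 41.2 CPM with DMSO (0.17 ± 0.13, adjusted p = 0.38), and ATP6V1B2 had 116, 121 and 107 CPM with erianin and 90.0, 104 and 111 CPM with DMSO (0.18 ± 0.12, adjusted p = 0.30). In both the groups overlapped. ATP6V1G1, the common G subunit, had 67.8, 69.7 and 67.8 CPM with erianin and 90.9, 56.3 and 52.8 CPM with DMSO, so all erianin libraries lay below DMSO replicate 1 and above DMSO replicates 2 and 3. Its change was 0.04 ± 0.21 (adjusted p = 0.91) with all libraries and 0.34 ± 0.07 (adjusted p = 0.00027) without DMSO replicate 1. The other V1 genes, ATP6V1C1, ATP6V1D, ATP6V1E1, ATP6V1E2, ATP6V1F and ATP6V1H, had log2 fold changes between -0.36 and 0.30. By TPM, ATP6V1G1 and ATP6V1F were the highest members with erianin, at 232 ± 6.94 and 230.5 ± 21.3 TPM (SD, n = 3), which do not differ beyond their spread. LAMP1 followed with 177 ± 2.22 TPM.

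The V0 sector forms the proton path, and ATP6AP1 and ATP6AP2 are accessory proteins of the pump. Of 9 tested genes 3 were higher, 1 lower and 5 not called, against the same shares of all genes. The count was 4 higher and 2 lower without DMSO replicate 1. ATP6V0A2 (chr12:123712318-123761755, plus strand), an isoform of the large a subunit, had 55.6, 58.2 and 56.5 CPM with erianin and 43.8, 39.6 and 38.5 CPM with DMSO. ATP6V0E1 (chr5:172983757-173035445, plus strand), an e subunit, had 42.3, 40.8 and 41.2 CPM with erianin and 26.3, 31.4 and 30.2 CPM with DMSO. ATP6V0D1 (chr16:67438014-67481237, minus strand), the d subunit that couples the V1 rotor to the membrane ring, had 92.9, 93.4 and 91.0 CPM with erianin and 121, 145 and 142 CPM with DMSO. In these 3 genes the erianin libraries lay close together and apart from all DMSO libraries. ATP6V0A2 rose by 0.48 ± 0.10 (adjusted p = 0.015), ATP6V0E1 rose by 0.50 ± 0.11 (adjusted p = 0.017), and ATP6V0D1 changed by -0.56 ± 0.11 (adjusted p = 0.012).

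ATP6AP2, also called the prorenin receptor (chrX:40579372-40606848, plus strand), had 41.0, 37.6 and 35.0 CPM with erianin and 24.7, 27.7 and 31.6 CPM with DMSO. It rose by 0.44 ± 0.13 (adjusted p = 0.046), with groups that did not overlap. ATP6AP1, the other accessory gene, had 117, 116 and 131 CPM with erianin and 114, 127 and 136 CPM with DMSO (-0.05 ± 0.11, adjusted p = 0.78), and its groups overlapped.

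ATP6V0C encodes the proteolipid that makes up most of the rotating ring, yet it was among the lowest members. It had 0.628, 0.838 and 1.29 CPM with erianin and 0.0657, 0.370 and 0.441 CPM with DMSO, where DMSO replicate 1 lay under the floor. The groups did not overlap, with a change of 1.61 ± 0.54 (adjusted p = 0.068) with all libraries and 1.18 ± 0.41 (adjusted p = 0.017) without DMSO replicate 1. In GENCODE 29 this gene shares 57.5% of its exonic bases with the same-strand gene AC093525.2, so its low counts need not be its level. ATP6V0B, a second proteolipid gene, had 146, 135 and 159 CPM with erianin and 64.7, 181 and 183 CPM with DMSO. Here DMSO replicate 1 was the lowest of all libraries, and the change was 0.04 ± 0.35 (adjusted p = 0.95) with it and -0.30 ± 0.07 (adjusted p = 0.00054) without it.

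Summed over all 21 pump members, the level was 1140, 1125 and 1145 CPM with erianin and 1069, 1184 and 1187 CPM with DMSO. All erianin libraries lay above DMSO replicate 1 and below DMSO replicates 2 and 3. Of the 20 tested pump genes 4 were higher and 2 lower, and of the 33 other members 3 were higher and 4 lower. Of all genes 11.8% were higher and 12.3% lower. Leaving out DMSO replicate 1, the pump genes had 7 higher and 6 lower, and the other members 9 higher and 16 lower, against 27.8% of all genes higher and 27.4% lower.

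Among lysosomal proteins, LAMP1 and LAMP2 coat the inner face of the membrane, MCOLN1 is a calcium channel, and CTSB and CTSD are proteases. MCOLN1 (chr19:7522626-7534009, plus strand) had 18.8, 19.0 and 19.98 CPM with erianin and 23.5, 30.6 and 31.0 CPM with DMSO. CTSB had 44.6, 45.4 and 45.7 CPM with erianin and 57.1, 63.0 and 63.7 CPM with DMSO. Neither gene had overlapping groups, and MCOLN1 changed by -0.56 ± 0.14 (adjusted p = 0.025) and CTSB by -0.44 ± 0.10 (adjusted p = 0.019). Of 5 tested genes these 2 were lower and 0 higher, and without DMSO replicate 1, 1 was higher and 3 were lower. Of all genes 12.3% were lower with 6 libraries and 27.4% without that library.

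LAMP1 had 282, 277 and 288 CPM with erianin and 268, 305 and 311 CPM with DMSO (-0.06 ± 0.10, adjusted p = 0.69). LAMP2 had 49.1, 45.9 and 40.3 CPM with erianin and 46.4, 34.6 and 37.9 CPM with DMSO (0.19 ± 0.14, adjusted p = 0.38). CTSD had 14.0, 16.1 and 15.1 CPM with erianin and 12.6, 21.4 and 19.0 CPM with DMSO (-0.23 ± 0.20, adjusted p = 0.43). In these 3 genes the groups overlapped. Without DMSO replicate 1, LAMP2 was called higher (0.33 ± 0.09, adjusted p = 0.0023) and CTSD lower (-0.41 ± 0.10, adjusted p = 0.0011). CTSD shares 41.7% of its exonic bases with a same-strand gene, AC068580.4.

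**Figure D2:**
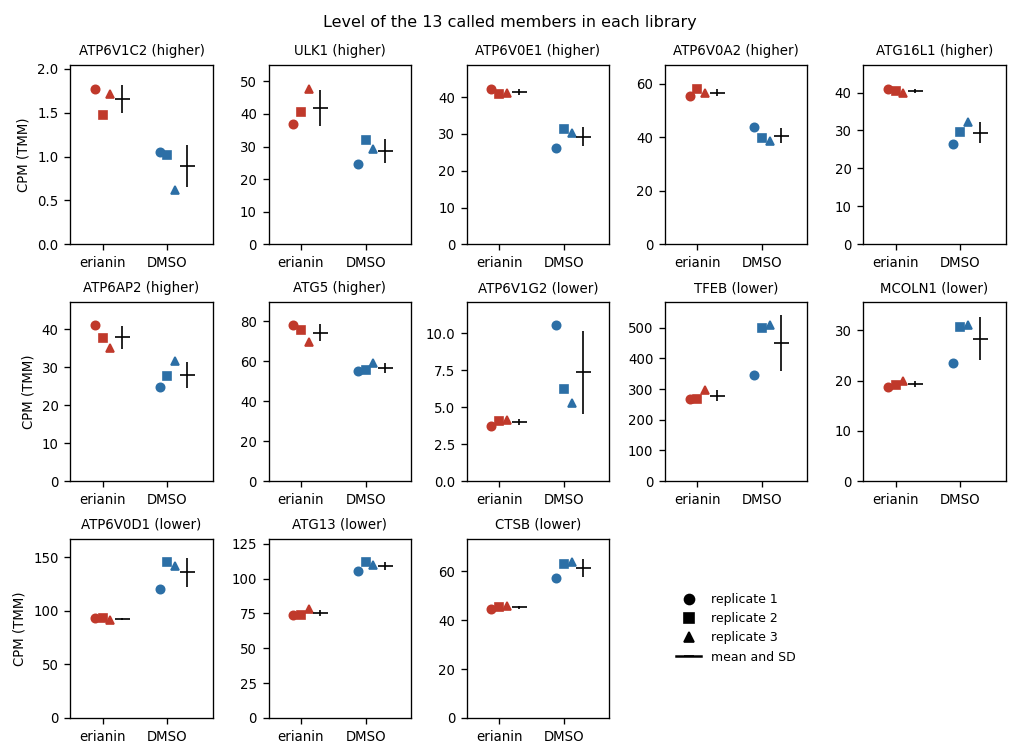
Level in CPM (vertical axes start at 0) of the 13 called members in each erianin and DMSO library, with a line at each group's mean. No called member has overlapping groups, and DMSO replicate 1 lies away from the other DMSO libraries for TFEB (345 CPM) and ATP6V1G2 (10.5 CPM).

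Several members come as pairs of isoforms or partners whose counts can be set against each other within a library, where scaling cancels. The 12 pairs were chosen after values had been seen, so their ratios are a description with no test. Gene lengths are not divided out, so a ratio is compared between libraries only. Against its paralog ATP6V0A1, ATP6V0A2 had a ratio of 1.40 ± 0.094 with erianin and 1.04 ± 0.073 with DMSO (SD, n = 3 each). ATP6V0E1 over ATP6V0E2 was 0.416 ± 0.030 with erianin and 0.289 ± 0.028 with DMSO. ATP6V1G1 over ATP6V1G2 was 17.2 ± 0.839 with erianin and 9.21 ± 0.690 with DMSO. In each of these pairs all erianin libraries lay above all DMSO libraries, DMSO replicate 1 included.

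The same held for ATP6AP2 over ATP6AP1, at 0.314 ± 0.042 with erianin and 0.223 ± 0.0079 with DMSO, and for ATG16L1 over ATG16L2, at 0.797 ± 0.079 with erianin and 0.476 ± 0.028 with DMSO. TFEB over TFE3 was 8.41 ± 0.315 with erianin and 11.6 ± 1.30 with DMSO, and ATP6V1C1 over ATP6V1C2 was 31.9 ± 4.72 with erianin and 49.998 ± 14.5 with DMSO, each with all erianin libraries below all DMSO libraries. In total 7 of the 12 ratios had groups that did not overlap. Each of these 7 holds a called member, so they are not separate from those calls. Those of ATP6V1E1 to ATP6V1E2, ATG2A to ATG2B, GABARAPL2 to GABARAPL1, LAMP1 to LAMP2 and CTSB to CTSD overlapped. As single genes, 23.6% of all genes had all erianin libraries above all DMSO libraries and 23.1% below. No such share was computed for ratios.

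**Figure D3:**
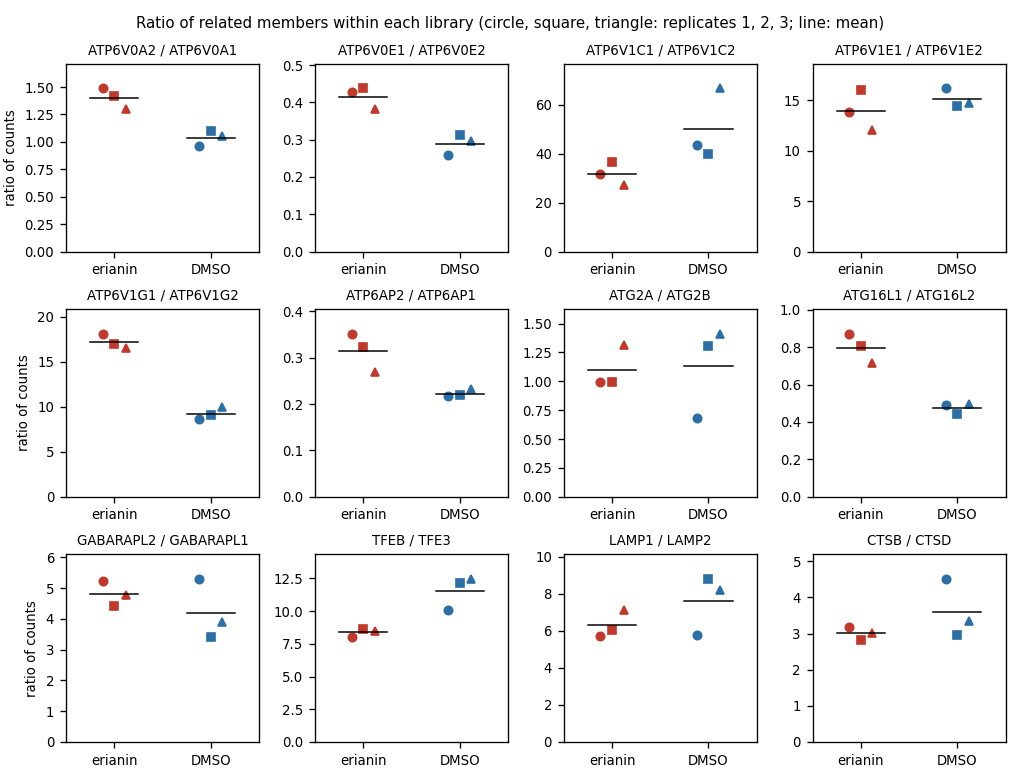
Ratio of counts of related members within each library (vertical axes start at 0), with circle, square and triangle for replicates 1, 2 and 3 and a line at the group mean. ATP6V1G1 over ATP6V1G2 is 17.2 with erianin and 9.21 with DMSO, with DMSO replicate 1 at 8.62 among the other DMSO libraries.

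DMSO replicate 1 was below both other DMSO libraries for 32 of the 53 tested members and above both for 19. Among 51 members, leaving out the low GABARAP and ATP6V0C, it lay at least 1.2-fold from the mean of DMSO replicates 2 and 3 for 25. The members with the widest gap included ATP6V0B and ATG4D below that mean and ATG4A, ATP6V1G2 and ATP6V1G1 above it. ATG4A changed by 0.01 ± 0.25 (adjusted p = 0.98) with all libraries. Without DMSO replicate 1 it was called higher (0.38 ± 0.13, adjusted p = 0.017). The part of this library in the further calls made without it was not tested. Offsets for GC content and gene length per library, with all 6 libraries, called 8 members higher and 14 lower, against 36.6% of all genes (15.2% higher and 21.4% lower). They held 11 of the 13 calls, with those of ATG5 (adjusted p = 0.073) and ATP6AP2 (adjusted p = 0.10) lost. The added calls, made with DMSO replicate 1 kept, were ATG101, SQSTM1 and ATP6V0C, higher, and ATG2A, ATG2B, ATG9A, ATG4D, ATG16L2, MAP1LC3B, TFE3 and CTSD, lower.

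**Figure D4:**
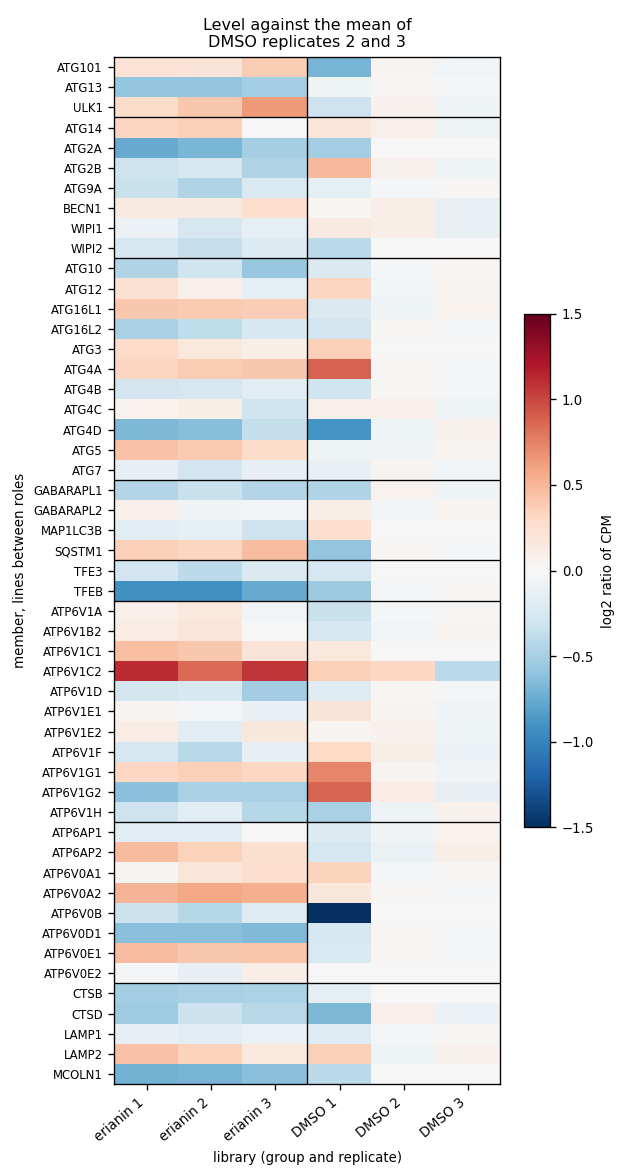
Level of 51 members in each library on a log2 scale, relative to the mean of DMSO replicates 2 and 3, with erianin libraries on the left. DMSO replicate 1 is at least 1.2-fold off that mean for 25 members, among them ATP6V0B, which had 64.7 CPM there.

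The calls changed with the libraries in the fit. Without erianin replicate 1 or without erianin replicate 2, edgeR called 0 members, with 16 and 17 at an unadjusted p under 0.05, against calls for 6.65% and 6.36% of all genes in the same fits. The share of all genes at that unadjusted p was not computed for these fits. Without erianin replicate 3 edgeR called ATG13 alone, against 10.3% of all genes. The calls left without DMSO replicate 2 were ATP6V0E1, ULK1, ATG13 and ATP6V0D1, against 15.2% of all genes. Those left without DMSO replicate 3 were ATG16L1, ATP6AP2, ATP6V0E1, ATG13, ATP6V0D1 and ATP6V1G2, and ATG2B was called lower as well, against 16.9% of all genes. Across these fits the highest adjusted p of a called member ran between 0.069 for ATG13 and 0.17 for ATP6AP2. The call of ATP6V1G2 also ended with limma-voom, with the filter at 20 counts, with total counts and with upper-quartile scaling, and those of ATP6V1C2, ATG5 and ATP6AP2 without a filter.

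Further genes of autophagy and lysosomes outside the member rule were read from 4 lists. Of 102 tested, 13 were higher and 16 lower (28.4%), against the 24.2% of all genes. Without DMSO replicate 1, 29 were higher and 33 lower of 103 tested (60.2%), against 55.3% of all genes.

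In the list of other autophagy machinery and receptors, 2 of 29 were higher and 6 lower, against 11.8% of all genes higher and 12.3% lower. The split was 9 higher and 10 lower without DMSO replicate 1. PIK3R4, the regulatory subunit of the class III PI3-kinase that binds BECN1, averaged 69.9 ± 0.416 CPM with erianin and 48.3 ± 1.78 CPM with DMSO (SD, n = 3 each), with no overlap (0.53 ± 0.09, adjusted p = 0.0084). EPG5, a tether for fusion with the lysosome, had 19.1, 19.7 and 17.1 CPM with erianin and 33.3, 31.2 and 27.8 CPM with DMSO (-0.72 ± 0.12, adjusted p = 0.0073). OPTN, a cargo receptor, had 20.6, 21.6 and 21.4 CPM with erianin and 36.0, 27.5 and 29.7 CPM with DMSO (-0.55 ± 0.13, adjusted p = 0.022). In these 3 genes the groups did not overlap. The other called genes were NRBF2, higher, and RUBCN, AMBRA1, WDR45 and CALCOCO2, lower.

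Among lysosomal hydrolases and membrane proteins, 10 of 47 were higher and 6 lower, against the same shares of all genes. Here 17 were higher and 14 lower without DMSO replicate 1. CTSC, the dipeptidyl peptidase cathepsin C, had 91.0, 83.6 and 85.2 CPM with erianin and 47.7, 53.7 and 47.9 CPM with DMSO (0.80 ± 0.10, adjusted p = 0.0033). TMEM175, a channel of the lysosomal membrane, had 21.9, 22.2 and 26.2 CPM with erianin and 39.0, 50.8 and 48.2 CPM with DMSO (-0.97 ± 0.14, adjusted p = 0.0047). SMPD1, acid sphingomyelinase, had 6.91, 7.31 and 7.97 CPM with erianin and 13.5, 12.4 and 11.9 CPM with DMSO (-0.77 ± 0.13, adjusted p = 0.0069). The groups of each gene lay apart, and the cathepsin genes CTSC, CTSK and CTSS were higher while CTSB of the members was lower. CTSA, CTSH, CTSO and CTSZ of this list and CTSD of the members were not called.

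Of 12 tested genes for a further pump subunit and for factors that assemble or take apart the pump, 0 were higher and 3 lower. Of all genes 11.8% were higher and 12.3% lower. Of the 12, 0 were higher and 3 lower at an unadjusted p under 0.05, against 2192 higher and 2244 lower of the 11550 genes. DESeq2 and limma-voom called 0 of the 12 higher, and 1566 and 1401 of the 11550 genes. In the fit without DMSO replicate 1, 1 of 13 was higher and 5 were lower. The 3 called with 6 libraries were DMXL1, DMXL2 and WDR7. Their products belong to the human counterpart of the yeast RAVE complex, which joins V1 to V0. ROGDI, of the same complex and in this list, was not called (-0.10, adjusted p = 0.69). DMXL1 had 32.7, 31.0 and 31.2 CPM with erianin and 60.4, 44.6 and 47.0 CPM with DMSO (-0.68 ± 0.14, adjusted p = 0.014). DMXL2 had 15.3, 16.4 and 15.0 CPM with erianin and 38.7, 23.8 and 22.9 CPM with DMSO (-0.87 ± 0.21, adjusted p = 0.025). WDR7 had 18.3, 20.3 and 18.8 CPM with erianin and 45.4, 31.2 and 31.1 CPM with DMSO (-0.91 ± 0.17, adjusted p = 0.011). In all 3 the groups did not overlap and DMSO replicate 1 was the highest library. Their calls ended without any 1 of the erianin libraries (adjusted p up to 0.080 for DMXL1, 0.10 for DMXL2 and 0.064 for WDR7). TCIRG1, the a3 subunit isoform, had 101, 103 and 124 CPM with erianin and 106, 147 and 148 CPM with DMSO (-0.29 ± 0.16, adjusted p = 0.23).

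Among 14 tested genes of lysosomal nutrient sensing and of the control of TFEB and its relatives, 1 was higher and 1 lower, and without DMSO replicate 1, 2 were higher and 4 lower. The shares over all genes were 11.8% higher and 12.3% lower with 6 libraries, and 27.8% and 27.4% without that library. RRAGC, a Rag GTPase that brings mTORC1 and TFEB to the lysosome, had 9.48, 9.94 and 8.32 CPM with erianin and 4.30, 4.90 and 6.21 CPM with DMSO (0.85 ± 0.17, adjusted p = 0.014). SLC38A9, an arginine sensor of the lysosomal membrane, had 16.5, 14.9 and 12.8 CPM with erianin and 25.1, 20.1 and 22.6 CPM with DMSO (-0.62 ± 0.14, adjusted p = 0.021). For both genes the groups lay apart.

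The B lineage of the line was read from 7 markers, all detected, which summed to 2296 to 2570 CPM with erianin and 2717 to 3736 CPM with DMSO. Of these CD79A was higher and CD79B and PAX5 lower. T cell markers summed to at most 0.055 CPM in the erianin libraries and 0.031 CPM in the DMSO libraries, with CD3G and CD2 at 0. Epithelial and stromal markers summed to 0.173 to 0.328 CPM with erianin and 0.197 to 0.247 CPM with DMSO, with EPCAM at 0. The 4 myeloid markers, of cells rich in lysosomes, each had at least 1 count and summed to 9.36 to 10.6 CPM with erianin and 4.30 to 7.27 CPM with DMSO. Most of the sum was LYZ, which was not called (7.32, 7.28 and 8.63 CPM with erianin and 4.21, 7.06 and 6.03 CPM with DMSO). ITGAM was above the floor in erianin replicate 1 alone and at 0 in all DMSO libraries. Among the others CD14 had 1.56, 1.56 and 1.60 CPM with erianin and 0, 0.062 and 0.265 CPM with DMSO, and CSF1R was higher too. The part of these genes in the results was not tested.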

How the data were processed

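RNA from SU-DHL-8 cells was sequenced in 3 libraries with erianin and 3 with DMSO, grouped by their labels. The authors deposited a table of raw gene counts, in whole numbers, and a table of TPM, which scale for gene length. Tools named in the submitters' processing notes are STAR 2.7.10, featureCounts 2.0.1, fastp 0.23.2 and StringTie 2.2.1, and the build is GRCh38 (hg38). The sources used here do not give the annotation release or the settings for strand and multi-mapping reads. Of counts from 1 to 99, 53.1% to 58.1% were even in each library, and if both reads of a pair were counted, counting error is larger than the floor implies.

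Of 65807 entries, 61 repeated symbols were left out, and 7 symbols that differed in the TPM table were taken from the count table. Coordinates and exon overlaps came from GENCODE 29. Counts were scaled by TMM, filtered by filterByExpr and tested with edgeR 4.0.16 (R 4.3.3), with treatment as the single term and Benjamini-Hochberg adjustment over 11550 genes. The SE is the fold change divided by the square root of F. Replicates are libraries, so p-values measure the spread between them, which may be technical. Promoters came from RefSeq (GRCh38.p14).

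Values in every library are given for 18 genes fixed by name, among them CTSL, which was at 0 and is not a member. This list is not that of the member rule: it holds ATP6AP1, ATP6AP2 and ATP6V0C in place of ULK2, WIPI1 and WIPI2. Values are also given for the 12 called members with the largest change and up to 2 called members with the smallest p per role, plus up to 3 called genes per further list. Other members given in full, and other genes named from the further lists and markers, were chosen after their values were seen. The members, lists and this rule were chosen with earlier results of these data known. Alternatives were other scalings and filters, DESeq2 1.42.0, limma-voom and limma-trend on TPM (limma 3.58.1), a replicate block, glmTreat, offsets for GC content and length (mgcv 1.9.3) and each library left out. Figures were drawn with matplotlib 3.10.9 and tables made with numpy 2.4.6 and pandas 2.3.3 in Python 3.11.15.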

Additional observations from a re-analysis of the deposited data

How the results depend on the processing

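Counts of calls moved with the libraries, the size threshold and the unit. Leaving out 1 library at a time gave 0 to 16 members higher and 0 to 22 lower, 407 to 3278 genes of the whole table higher and 338 to 3227 lower, and 1 to 29 genes of the further lists higher and 2 to 33 lower, with the highest of each without DMSO replicate 1. With the GC content and length offsets, 14 members and 2443 genes were lower. With the offsets and without DMSO replicate 1, a choice made after seeing the data, 14 members were higher and 27 lower, 3015 genes higher and 4276 lower, and 25 genes of the further lists higher and 39 lower. Against a 1.5-fold change (glmTreat), 0 members were higher and 0 lower (1 at an unadjusted p under 0.05), with 185 genes higher and 109 lower, and 0 further genes in either direction. The share of all genes at that unadjusted p was not computed for this fit. On log2(TPM + 1) and log2(TPM + 0.1), 2 members (ATP6V0A2 and ATP6V1C2) were higher and 0 lower. Of all genes 1408 and 1263 were higher and 262 and 245 lower. Of the further genes 12 and 11 were higher, and 2 were lower with each. The median of all genes was then 0.20 and 0.28. These TPM fits kept DMSO replicate 1, whose TPM column summed to 39.2% of what a TPM column should. The other libraries had 63.6% to 66.7%, and the columns were not rescaled to a common sum, so the TPM of DMSO replicate 1 run low against theirs. Total counts alone gave 918 genes and 9 further genes lower. How much of the TPM shift comes from the low column of DMSO replicate 1 was not tested, and neither was the cause of the other shifts.

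The sign of members that were not called turned positive in some fits. On log2(TPM + 1) and log2(TPM + 0.1) it did so for GABARAPL2 (0.23 and 0.23), TFE3 (0.050 and 0.055), ATP6AP1 (0.22 and 0.22), CTSD (0.037 and 0.069) and LAMP1 (0.21 and 0.21), and on log2(TPM + 0.1) for GABARAPL1 (0.016). The median of all genes in those fits, 0.20 and 0.28, was above the values of TFE3, CTSD and GABARAPL1. GABARAPL2, ATP6AP1 and LAMP1 lay above it with the pseudocount of 1 and below it with 0.1. With upper-quartile scaling and total counts the sign turned positive for GABARAPL2 (0.048 and 0.071), ATP6AP1 (0.033 and 0.060) and LAMP1 (0.023 and 0.050). The median of all genes was 0.082 and 0.11 there, above each of these values. Leaving out 1 library at a time gave -0.51 to 0.20 for GABARAP, -0.077 to 0.0070 for GABARAPL2 and -0.11 to 0.0074 for ATP6AP1. Of the named members' values, 321 kept their direction and their side of the threshold, 103 lost a call, 30 gained one and 21 changed sign. With a replicate block, 5 members were higher and 5 lower, and 1139 genes higher and 1157 lower. It ended the calls of ATG16L1, ATG5, ATP6AP2, ATP6V1C2 and ATP6V1G2 (adjusted p = 0.053, 0.077, 0.086, 0.071 and 0.056) and added SQSTM1 and ATP6V0C (0.045 and 0.034). Correlations of deviations from the group mean were 0.17, -0.14 and 0.23 for same-numbered libraries and ran from -0.29 to 0.25 for differently numbered ones. The deviations are centred within groups of 3, and DMSO replicate 1 stands apart. These values therefore cannot decide whether replicate numbers pair the libraries.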
